A study of Sus scrofa with 6 samples.

Results

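The microRNAs (miRNAs) ssc-miR-144, ssc-miR-451 and ssc-miR-486 are best known as products of red blood cells and their precursors, and were read here as a measure of blood in pig skin. They were picked by name from a table of 898 miRNAs. All 3 were found, and all 3 were among the 454 miRNAs with enough reads to be tested. The small RNA came from skin of Xiang pigs, a strain of Sus scrofa, and was made into 6 libraries. Black skin gave the libraries S03, S04 and S05, and white skin gave S02, S06 and S07. All of the skin was cleaned with alcohol, freed of hair and kept in RNAwait at low temperature, and the labels give no age, sex, body site, animal or agent beyond these. The p-values therefore measure the spread between libraries, which may be technical. The study looks for miRNAs that affect melanin formation, and the comparison of black with white skin here asks whether these 3 miRNAs differ between the colours. Which cells of the skin samples they came from was not measured.

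In mice and zebrafish miR-144 and miR-451 are cut from a shared transcript that the red cell factor GATA1 switches on. The precursor of miR-451 is unusual in that the slicer AGO2, and not Dicer, matures it. Both accumulate while red cells form and stay in the circulating cell, so in a solid tissue they are usually taken as a sign of the blood it holds. In human and mouse miR-486 lies inside the gene for the red cell membrane anchor ankyrin, ANK1, and is also made by striated muscle.

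In the pig the annotated positions were alike, with miR-144 and miR-451 neighbouring and miR-486 within ANK1. Whether miR-144 and miR-451 share a transcript in the pig was not examined. In the RefSeq annotation of Sscrofa11.1, MIR451 lies on chromosome 12 at 45088808 to 45088872 and MIR144 beside it at 45088958 to 45089033, with 85 bases between them. Both fall inside the annotated span of ERAL1, a gene for a mitochondrial ribosome factor. A precursor of ssc-miR-486, MIR486-1, lies on chromosome 17 at 10758855 to 10758934, within the span of ANK1. Whether the pig has further copies of it was not examined. The annotation used gives neither exons nor strand, so whether these are introns is not stated. Mature sequences were not used here.

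Levels are given in RPM, reads per 1000000 miRNA reads of the library, from which whole read numbers were recovered. Libraries held 7332769 to 8647930 reads in black skin and 6454685 to 10165949 in white skin. Over all tested miRNAs, 32 of 454 (7.05%) differed between the colours at an adjusted p under 0.05 (limma on log2(RPM + 1), Benjamini-Hochberg), and the median difference was 0.00. The keratinocyte miRNA ssc-miR-205, a marker of epidermis, measured 14237 ± 2596 RPM in black skin, against 19830 ± 4277 RPM in white (SD, n = 3 each), so a defining marker of skin was present. RPM of different miRNAs also depend on how well each is captured in the library, so ratios between them are compared across libraries and are not ratios of molecules.

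The 3 miRNAs differed widely in level, and none passed the test between black and white skin, against 7.05% of all tested miRNAs. At an unadjusted p under 0.05 there was 1, against 116 of the 454 tested (25.6%). It was ssc-miR-486, which DESeq2 also called, while edgeR and limma-voom on the recovered reads called 0 of the 3. ssc-miR-451 was among the 50 most abundant named miRNAs of every library, with ranks between 25 and 50 of 280. ssc-miR-486 ranked 142 to 193 and ssc-miR-144 ranked 167 to 242. ssc-miR-451 made up 98.0% to 99.1% of their summed reads, so any summed index of the 3 is in effect ssc-miR-451 alone. That sum was 994, 1271 and 4298 RPM in black S03, S04 and S05, against 3989, 1723 and 4914 RPM in white S02, S06 and S07.

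ssc-miR-451, whose best known target in mouse red cells is the adaptor gene Ywhaz, measured 981, 1260 and 4248 RPM in black S03, S04 and S05, against 3948, 1688 and 4855 RPM in white S02, S06 and S07. The groups overlap, since S05 was above 2 of the 3 white libraries and S06 lay near the lower black ones. The means were 2163 ± 1811 RPM in black skin, against 3497 ± 1631 RPM in white (SD, n = 3 each). On the log2(RPM + 1) scale black minus white was -0.87 with a standard error of 0.55 and a 95% interval of -2.12 to 0.37 (limma, adjusted p = 0.368; two-sided exact permutation p = 0.3). The interval reaches from a clear fall to a small rise, so these libraries set no narrow limit on a change of ssc-miR-451.

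ssc-miR-144, which in human red cells represses the antioxidant regulator NRF2, leaned the other way. It measured 5.55, 3.55 and 21.2 RPM in black S03, S04 and S05, against 2.74, 0.775 and 6.49 RPM in white S02, S06 and S07. The single lowest value was in white S06 and the highest in black S05, and the white library S07 was above black S03 and S04. It is a scarce miRNA, with 43, 26 and 183 reads in the black libraries and 20, 5 and 66 reads in the white ones. The 5 reads of S06 give a 95% Poisson interval of 0.252 to 1.81 RPM, which covers counting error only. The means were 10.1 ± 9.64 RPM in black skin, against 3.34 ± 2.91 RPM in white (SD, n = 3 each). Black minus white came to 1.24 (standard error 0.66) with a 95% interval of -0.24 to 2.73 (limma, adjusted p = 0.284; two-sided exact permutation p = 0.3).

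ssc-miR-486, which in human and mouse muscle represses the transcription factor FOXO1, was the 1 member whose groups did not overlap. It measured 7.49, 7.64 and 28.9 RPM in black S03, S04 and S05, against 37.4, 34.4 and 52.0 RPM in white S02, S06 and S07. All black libraries were below all white ones, and S05 lay much closer to the white libraries than to the other black ones. The same complete order, black below white, held for 63 of the 454 tested miRNAs (13.9%), and 27.3% had no overlap in either direction. The means were 14.7 ± 12.3 RPM in black skin, against 41.3 ± 9.44 RPM in white (SD, n = 3 each), a 2.81-fold lower mean in black. Black minus white came to -1.68 (standard error 0.48) with a 95% interval of -2.77 to -0.59, and missed the threshold after adjustment (limma, adjusted p = 0.0743; two-sided exact permutation p = 0.1, the smallest that 3 against 3 libraries allow).

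The library S05 weighed on each of these values. Without it, the difference of ssc-miR-486 was -2.28 and passed the test (limma, adjusted p = 0.00924), where 1.46% of all tested miRNAs were called. That of ssc-miR-451 was -1.52 and did not pass (adjusted p = 0.109), and that of ssc-miR-144 shrank to 0.57 (adjusted p = 0.658). ssc-miR-486 also passed with DESeq2 on the recovered reads (-1.57, adjusted p = 0.0106), where 11.5% of miRNAs were called. It passed too with predicted miRNAs left out before scaling (-1.78, adjusted p = 0.0341), where 14.5% were called. With any library other than S05 left out, ssc-miR-486 did not pass (limma, adjusted p from 0.0866 without S02 to 0.215 without S03). Leaving out S06 moved ssc-miR-144 to 0.72 (adjusted p = 0.648) and ssc-miR-451 to -1.33 (adjusted p = 0.249), and leaving out S03 moved ssc-miR-451 to -0.46 (adjusted p = 0.743).

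**Figure D1:**
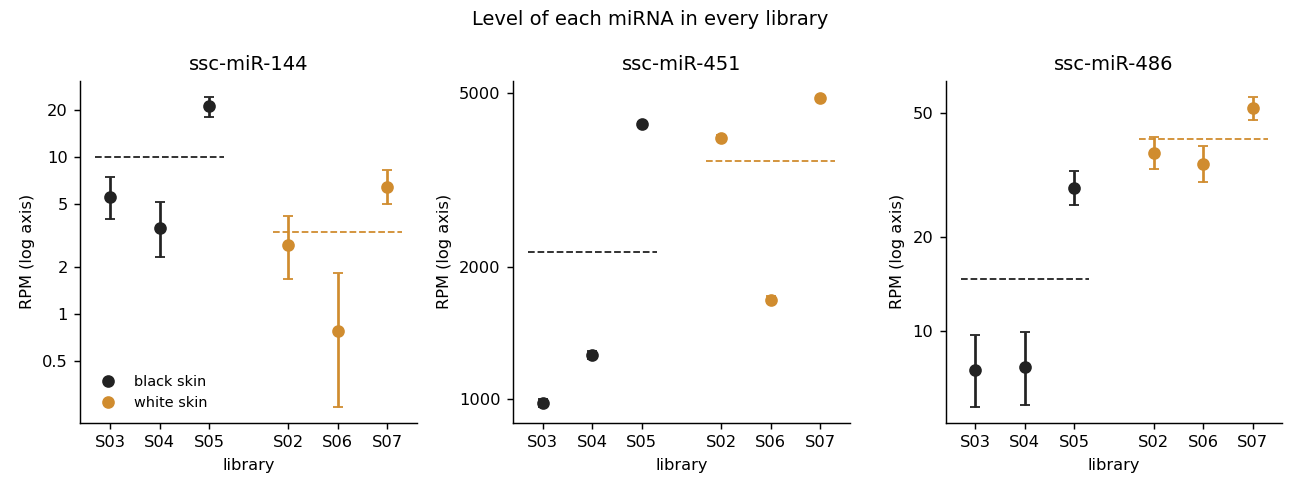
RPM (log axis) of each miRNA in the 3 black and 3 white libraries, with 95% Poisson intervals for counting error as bars and group means as dashed lines. For ssc-miR-486 the black libraries, at 7.49 to 28.9 RPM, all sit below the white ones, at 34.4 to 52.0 RPM, while the groups overlap for ssc-miR-144 and ssc-miR-451.

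Libraries of the same colour differed from each other more for these miRNAs than for most, except for ssc-miR-486 in white skin. Within black skin the highest library exceeded the lowest 5.97-fold for ssc-miR-144, 4.33-fold for ssc-miR-451 and 3.86-fold for ssc-miR-486. Within white skin the same ratios were 8.38, 2.88 and 1.51. The residual SD on the log2 scale was 1.12 for ssc-miR-144, 0.98 for ssc-miR-451 and 0.77 for ssc-miR-486, against a median of 0.34 over all tested miRNAs. These were larger than for 98.0%, 96.3% and 93.2% of the tested miRNAs. For ssc-miR-486 the spread was in black skin, with a log2 SD of 1.04, larger than for 98.2% of the tested miRNAs, where S05 stood apart. Its log2 SD in white skin was 0.31, larger than for 39.6%. Scarce miRNAs vary more through counting. Reads per library were 5 to 183 for ssc-miR-144, 56 to 529 for ssc-miR-486 and 7602 to 49357 for ssc-miR-451. Among the 53 tested miRNAs with a mean of at least 1000 RPM, ssc-miR-451 had the largest residual SD, where the median was 0.23. The part of counting error in the spread was not tested.

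Within each colour the 3 miRNAs lay on the same side of their group mean in 5 of the 6 libraries. In black skin S05 was above its group mean for all 3, by 1.35 for ssc-miR-144, 1.29 for ssc-miR-451 and 1.20 for ssc-miR-486 on the log2(RPM + 1) scale, and S03 and S04 were below it for all 3. In white skin S07 was above its group mean for all 3, by 1.03, 0.61 and 0.35, and S06 was below it for all 3, at -1.05, -0.92 and -0.23. S02 lay near the white mean, at 0.02, 0.31 and -0.12 for ssc-miR-144, ssc-miR-451 and ssc-miR-486. Described over the 6 libraries, Pearson's r of these deviations was 0.93 between ssc-miR-451 and ssc-miR-144, 0.90 between ssc-miR-486 and ssc-miR-451 and 0.88 between ssc-miR-486 and ssc-miR-144. Of the 453 other tested miRNAs, ssc-miR-144 was the 1 whose deviations were closest to those of ssc-miR-451, and ssc-miR-486 stood at place 5. For ssc-miR-144, ssc-miR-451 stood at place 6 and ssc-miR-486 at place 17, and for ssc-miR-486, ssc-miR-451 stood at place 8 and ssc-miR-144 at place 9.

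These correlations rest on few points that share a library and its total, and deviations from 2 group means leave fewer free values than libraries. Depth moved with them: S05 held the most reads of the black libraries (8647930) and S07 the most of the white ones (10165949), and S06 the fewest of all (6454685). Its part in the result was not tested. In bulk skin, fewer blood cells and less of an miRNA per cell cannot be told apart.

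**Figure D2:**
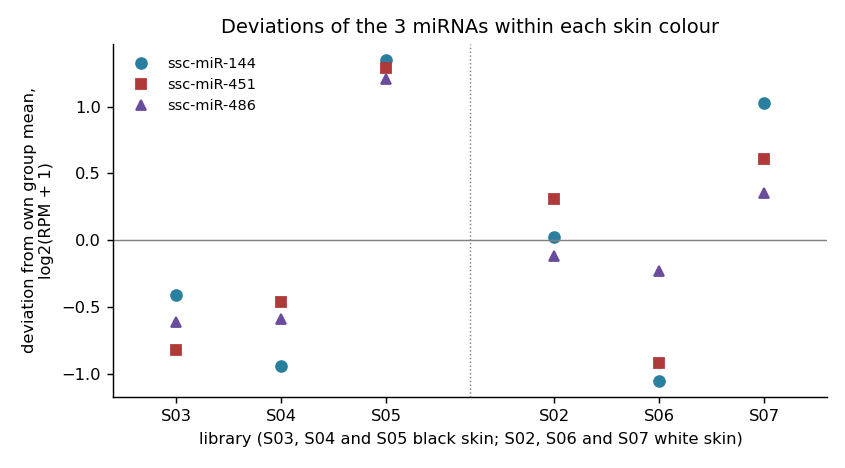
Deviation of each library from the mean of its own skin colour, in log2(RPM + 1), for the 3 miRNAs. The 3 symbols lie together and high in S05, at 1.20 to 1.35, and all lie above 0 in S07 and below 0 in S03, S04 and S06.

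Between the colours the differences of the 3 had different signs. Ratios between them were therefore compared, since a ratio of reads within a library does not depend on how the library is scaled. For each read of ssc-miR-144 there were 177, 355 and 201 reads of ssc-miR-451 in black S03, S04 and S05, against 1441, 2179 and 748 reads in white S02, S06 and S07. The exact binomial 95% intervals, which cover counting error only, ran from 131 to 544 over the black libraries and from 588 to 6713 over the white ones, and did not overlap between the colours. In reads, all 3 black libraries had a lower ratio than all 3 white ones for these products of neighbouring precursors.

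On the log2 scale with 1 RPM added to each, the ratio of ssc-miR-451 to ssc-miR-144 was 7.64 ± 0.45 in black and 9.76 ± 0.37 in white skin (SD, n = 3 each). Black minus white was -2.12 with a standard error of 0.34, a 4.34-fold lower ratio on this scale (two-sided exact permutation p = 0.1, adjusted over the 3 ratios 0.1, the smallest possible with 3 against 3). Unlike a ratio of reads, this ratio depends on scaling, and the added RPM lowers it most where ssc-miR-144 is scarce. White S06, with the highest ratio of reads, came to 9.89 here, below 10.04 in white S02. Of the other tested miRNAs, 9.93% had a ratio to ssc-miR-451 that did not overlap between the colours, and 11.5% had such a ratio to ssc-miR-144. The difference stayed between -2.35 and -1.91 on leaving out each library in turn, S05 and S06 included. With pseudocounts of 0.1 and 10 it was -2.45 and -1.38.

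The ratios to ssc-miR-486 also separated the colours. For each read of ssc-miR-144 there were 1.35, 2.15 and 1.37 reads of ssc-miR-486 in black S03, S04 and S05, against 13.7, 44.4 and 8.02 in white S02, S06 and S07. The highest black value, 2.15, was below the lowest white value, 8.02. Ratios to ssc-miR-486 separated the colours for many miRNAs, with no overlap for 58.5% of the others tested, so this separation is near the background for ssc-miR-486. On the log2 scale this ratio was 0.58 ± 0.30 in black and 3.50 ± 0.76 in white skin (SD, n = 3 each), a difference of -2.92 with a standard error of 0.47 (two-sided exact permutation p = 0.1, adjusted 0.1). With pseudocounts of 0.1 and 10 it was -3.35 and -1.66.

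For each 1000 reads of ssc-miR-451 there were 7.63, 6.06 and 6.81 reads of ssc-miR-486 in black S03, S04 and S05, against 9.47, 20.4 and 10.7 reads in white S02, S06 and S07. The black libraries were close to each other, and the white library S06 stood apart from the other two white ones. The log2 ratio was -7.07 ± 0.18 in black and -6.26 ± 0.60 in white skin (SD, n = 3 each), a difference of -0.81 with a standard error of 0.36 (two-sided exact permutation p = 0.1, adjusted 0.1). Without S06 the difference was -0.46, and with a pseudocount of 10 it was -0.28 (exact permutation p = 0.7). The binomial intervals of black S03, 101 to 173 reads of ssc-miR-451 per read of ssc-miR-486, and white S02, 93.7 to 119, overlap, so counting error alone could bring these 2 libraries level.

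**Figure D3:**
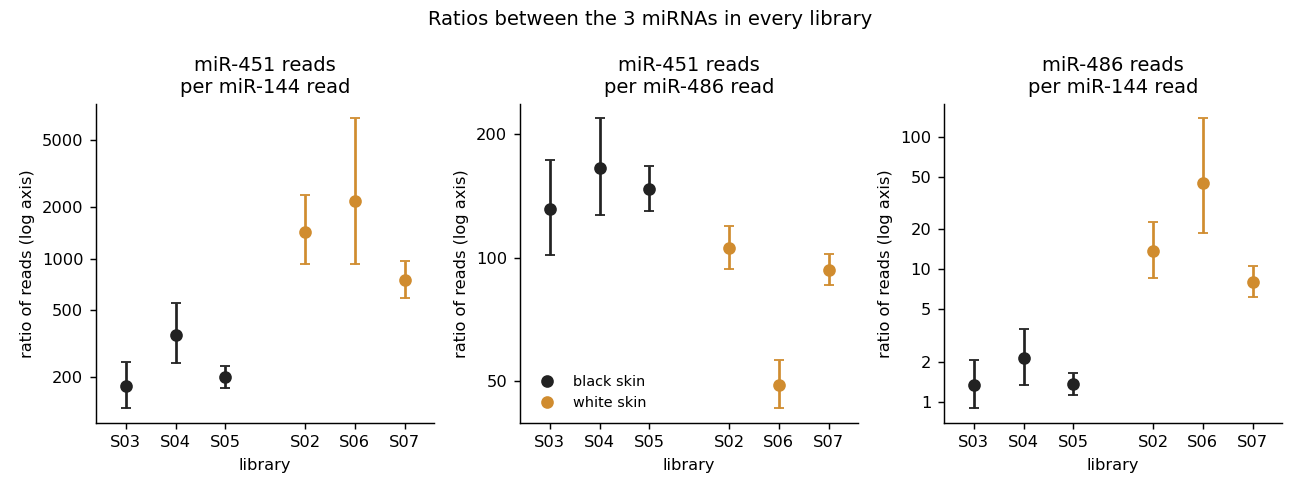
Ratio of recovered reads (log axis) between the 3 miRNAs in each library, with exact binomial 95% intervals for counting error as bars, black skin left of white skin. The black libraries hold 177 to 355 reads of miR-451 per read of miR-144, and the white libraries hold 748 to 2179.

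Other miRNAs that are abundant in red cells did not pass the test. Of 13 names in this list, 9 were found, with 11 products tested, and 0 rose, 0 fell and 11 did not pass limma's test (median difference -0.25, against 0.00 over all tested miRNAs). At an unadjusted p under 0.05 there were 4 of 11, where all tested miRNAs gave 25.6%, and edgeR, DESeq2 and limma-voom called 0. Their summed level was 3130 to 3694 RPM in black and 3720 to 3888 RPM in white skin. These ranges lie close together and do not overlap, and 27.3% of single tested miRNAs had no overlap either. The difference was negative for 7 products and positive for 4. The most abundant was ssc-miR-185, at 668 ± 72.3 RPM in black skin, against 907 ± 73.4 RPM in white (SD, n = 3; -0.44, adjusted p = 0.154). ssc-miR-22-3p measured 755 ± 163 RPM in black skin, against 524 ± 93.5 RPM in white (SD, n = 3; 0.52, adjusted p = 0.185). ssc-miR-16 measured 550 ± 182 RPM in black skin, against 624 ± 93.5 RPM in white (SD, n = 3; -0.22, adjusted p = 0.658). These miRNAs are made by many cell types, so their level in skin is not a measure of blood by itself.

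ssc-miR-16 was nevertheless the named miRNA most like ssc-miR-451 over the libraries. It measured 437, 452 and 760 RPM in black S03, S04 and S05, against 581, 559 and 731 RPM in white S02, S06 and S07. It was highest in S05 and S07, as ssc-miR-451 was. Among 186 other named miRNAs with a mean of at least 10 RPM, the highest Pearson's r with ssc-miR-451 over the 6 libraries was 0.92 for ssc-miR-16, followed by 0.86 for both ssc-miR-199a-5p and ssc-miR-486. The closest to ssc-miR-486 were ssc-miR-362 (0.92), ssc-miR-15b (0.90) and ssc-miR-10b (0.90), and ssc-miR-451 came at place 7. The closest to ssc-miR-144 were ssc-miR-146a-5p (0.91), ssc-miR-29b (0.90) and ssc-miR-30b-5p (0.87). In that order, among 187 candidates, ssc-miR-451 came at place 60 with 0.41 and ssc-miR-486 at place 99 with -0.02. Such a ranking over 6 libraries is a description.

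Among miRNAs that regulate red cell formation, several moved, though in both directions. Of 12 names in this list 11 were found, with 15 products tested, of which 4 rose, 1 fell and 10 did not pass (limma; median difference -0.07). ssc-miR-27a rose, at 11228 ± 2880 RPM in black skin, against 5851 ± 790 RPM in white (SD, n = 3; 0.92, adjusted p = 0.0324). The other 3 that rose were ssc-miR-24-2-5p (0.86) and the endothelial ssc-miR-126-5p (0.89) and ssc-miR-126-3p (0.71), each with an adjusted p of 0.0423. Calls in this direction made up 3.96% of all tested miRNAs, and calls of miRNAs lower in black skin 3.08%. ssc-miR-221-3p, which in human progenitors restrains the receptor KIT, fell by 1.24 (adjusted p = 0.0318). The abundant ssc-miR-23a measured 7389 ± 319 RPM in black skin, against 7762 ± 656 RPM in white and did not pass (SD, n = 3; -0.07, adjusted p = 0.821).

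Many of these products are also made by other cells of skin. ssc-miR-221-3p, ssc-miR-27a and ssc-miR-126-5p lost their calls without S03, S04, S05, S06 or S07, ssc-miR-126-3p without S02, S03, S04, S05 or S06, and ssc-miR-24-2-5p without any 1 of the 6 libraries. Adjusted p was up to 0.167 in these fits. With all libraries, ssc-miR-126-3p lost its call in 6 of 11 other settings, ssc-miR-24-2-5p in 5 and ssc-miR-126-5p in 3. edgeR and limma-voom called 2 of the 15, ssc-miR-27a and ssc-miR-221-3p. Over all 454 tested miRNAs edgeR called 30 and limma-voom 31. DESeq2, which called 11.5% of all, called these 2, ssc-miR-24-2-5p, ssc-miR-126-5p and ssc-miR-210. It called ssc-miR-210 lower in black skin (-0.81, adjusted p = 0.0379), and did not call ssc-miR-126-3p. At an unadjusted p under 0.05 limma gave 8 of 15, where all tested miRNAs gave 25.6%.

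Markers of white blood cells and of vessels are set beside the red cell values, since blood and its vessels carry both. Of 7 leukocyte names 6 were found, with 7 products tested, of which 1 rose, 0 fell and 6 did not pass (limma; median difference 0.13). Its defining member miR-223, of granulocytes, had no product among the miRNAs analysed here. The summed level of the list was 3759 to 6009 RPM in black and 3079 to 6024 RPM in white skin, so the groups overlap. Over all tested miRNAs 3.96% were called higher in black skin. At an unadjusted p under 0.05 there were 2 of 7 in this list, where all tested miRNAs gave 25.6%. The product that rose was ssc-miR-142-3p, found across blood cells, with 256, 103 and 211 RPM in black S03, S04 and S05, against 49.2, 24.8 and 73.3 RPM in white S02, S06 and S07 (1.96, adjusted p = 0.0324). Its call was lost without S03, S05 or S06, with adjusted p up to 0.116. edgeR and limma-voom called it alone, and DESeq2 also called ssc-miR-342, which was lower in black skin (-0.93, adjusted p = 0.0258).

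The most abundant of the leukocyte list, ssc-miR-146a-5p, measured 2802 ± 773 RPM in black skin, against 2503 ± 918 RPM in white (SD, n = 3; 0.19, adjusted p = 0.744). It was also the closest to ssc-miR-144 above, with its highest values in S05 (3669 RPM) and S07 (3540 RPM). ssc-miR-146b (-0.48, adjusted p = 0.271) and ssc-miR-142-5p (0.60, adjusted p = 0.433) did not pass either. The part of white blood cells in the red cell values was not tested.

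Of the vascular wall list all 3 names were found, with 6 products tested, of which 3 rose, 0 fell and 3 did not pass (limma; median difference 0.65). Calls of miRNAs higher in black skin made up 3.96% of all tested miRNAs. At an unadjusted p under 0.05 there were 4 of 6, where all tested miRNAs gave 25.6%. The summed level of this list was 96227 to 119952 RPM in black and 44365 to 58091 RPM in white skin. These ranges did not overlap, as for 27.3% of single tested miRNAs. ssc-miR-143-3p alone made up 62317 to 81596 RPM in black and 24337 to 31818 RPM in white skin. ssc-miR-143-3p of smooth muscle rose by 1.29 (adjusted p = 0.00314) and was called by edgeR, DESeq2 and limma-voom too. The endothelial ssc-miR-126-3p rose by 0.71 but was called by none of these 3 tools. edgeR and limma-voom called 1 of the 6 products and DESeq2 called 2. Beside these, ssc-miR-144 had a positive difference and ssc-miR-451 and ssc-miR-486 had negative ones. The intervals for ssc-miR-144 and ssc-miR-451 both include 0. The part of vessels was not tested.

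As miR-486 is also made in muscle, striated muscle markers are set beside it. Of 6 names 5 were found, with 5 products tested, of which 0 rose, 0 fell and 5 did not pass (limma; median difference 0.28). Their summed level was 959 to 1604 RPM in black and 678 to 2017 RPM in white skin, and miR-208b had no product among the miRNAs analysed here. ssc-miR-1, the most abundant, measured 957, 687 and 1333 RPM in black S03, S04 and S05, against 436, 1483 and 1724 RPM in white S02, S06 and S07. ssc-miR-1 was lowest in white S02, where ssc-miR-486 stood at 37.4 RPM. It was highest in white S06 and S07, where ssc-miR-486 stood at 34.4 and 52.0 RPM. ssc-miR-206, named after its values were seen, measured 14.6, 4.77 and 8.21 RPM in black S03, S04 and S05, against 12.6, 106 and 115 RPM in white S02, S06 and S07 (-2.56, limma, adjusted p = 0.0804). It was the 1 of 5 with an unadjusted p under 0.05, where all tested miRNAs gave 25.6%, and edgeR (adjusted p = 0.0495) and DESeq2 (adjusted p = 0.0184) called it lower in black skin, while limma-voom did not. The difference was negative for 2 of the muscle products, ssc-miR-1 (-0.12) and ssc-miR-206. It was positive for the other 3, ssc-miR-133a-3p (0.53), ssc-miR-133b (0.28) and ssc-miR-499-5p (0.43). ssc-miR-499-5p did not overlap, at 218.2 RPM or more in black and 217.5 RPM or less in white skin, as for 27.3% of all tested miRNAs. The part of muscle in the values of ssc-miR-486 was not tested.

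Marker lists of the other cells of skin gave no call with limma. Of 10 epithelial and keratinocyte names 5 were found and tested, of which 0 rose, 0 fell and 5 did not pass (limma; median difference -0.31), with ssc-miR-205 at -0.47 (adjusted p = 0.204). At an unadjusted p under 0.05 there was 1 of 5, where all tested miRNAs gave 25.6%, and edgeR, DESeq2 and limma-voom called 0. Of 5 melanocyte names only miR-204 was found, and ssc-miR-204 measured 116 ± 24.6 RPM in black skin, against 64.5 ± 6.68 RPM in white (SD, n = 3; 0.82, limma, adjusted p = 0.0804). DESeq2 called it (adjusted p = 0.0441), and edgeR and limma-voom did not.

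**Figure D4:**
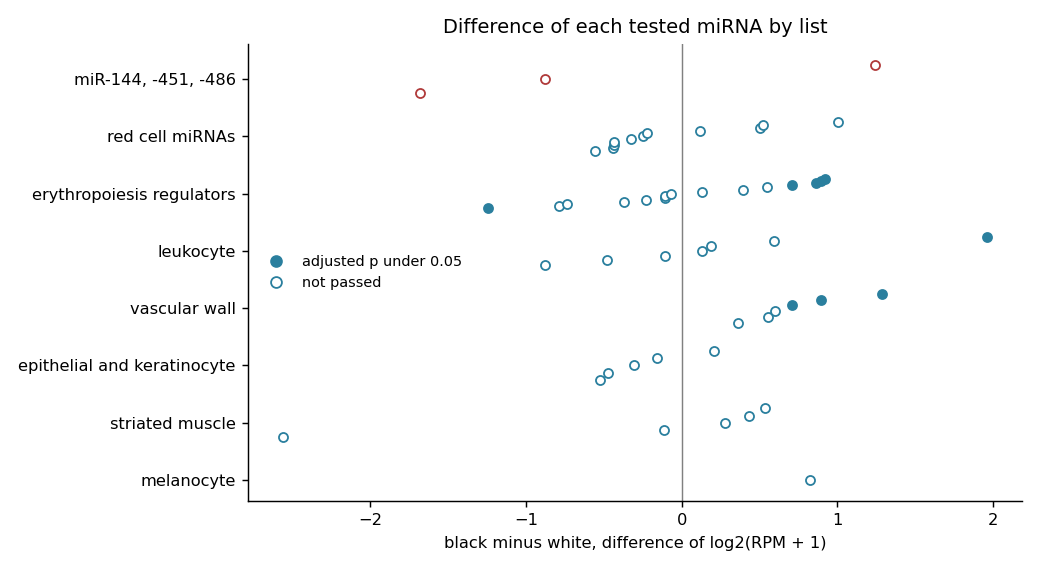
Difference of log2(RPM + 1), black minus white, for ssc-miR-144, ssc-miR-451, ssc-miR-486 and each tested product of the 7 marker lists; filled symbols passed the test (limma, adjusted p under 0.05). The 3 erythroid miRNAs lie at -1.68, -0.87 and 1.24, on both sides of 0, and none passed.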

How the data were processed

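Small RNA of skin was sequenced in 3 libraries of black and 3 of white skin, grouped by the labels. The authors deposited a single table of RPM. The unit was inferred from the columns, each of which adds up to 1000000. Per the submitters' processing notes, Bowtie and the build Sscrofa11.1 are listed, with no version of Bowtie and no role for either. How reads were counted and filtered, and against which miRNA database, is not given in the sources used here. For each library 100% of the nonzero values were whole multiples of 1 read (tolerance 0.001), so reads were recovered. Where a library has 0 reads of an miRNA, a level of up to 3 reads is allowed, which is 0.295 to 0.465 RPM.

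Differences of log2(RPM + 1), black minus white, were tested in R 4.3.3 with limma 3.58.1, its prior variance following mean level, and p-values were adjusted by Benjamini-Hochberg over the 454 miRNAs kept by filterByExpr of edgeR 4.0.16 (minimum count 10, minimum total 15). A fold change on that scale understates the change of scarce miRNAs. Intervals of differences are limma's. On the recovered reads edgeR called 30 and DESeq2 1.42.0 called 52, against 32. Ratios were compared with two-sided exact permutation tests. The limma step was tested on simulated data.

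The members and lists were chosen with earlier results of these data known. Names in a list took in both arms and all copies of an miRNA, and lists share members (miR-126, miR-150 and miR-155 are in 2 each). The text names the 3 miRNAs, the 3 most like each, the called and 3 most abundant members of the red cell, regulator and leukocyte lists, and defining markers of the others. Every tested striated muscle product is also named. Shared seeds were not examined. Alternatives covered pseudocount, filter, scaling, test and each library left out. None of the 3 rows was identical to another row. No paired analysis was made, as no library code occurs in both colours.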

Additional observations from a re-analysis of the deposited data

How the results depend on the processing

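ssc-miR-144, ssc-miR-451 and ssc-miR-486 each kept the direction of their difference in every setting run, including each library left out. ssc-miR-144 ranged from 0.51 to 1.58 over 10 other settings (adjusted p 0.145 to 0.338), and with 10 RPM required in 3 libraries it was not tested. Leaving out 1 library gave 0.57 to 1.76. ssc-miR-451 ranged from -0.96 to -0.74 over 11 settings (adjusted p 0.246 to 0.442), and from -1.52 to -0.46 without 1 library. ssc-miR-486 ranged from -1.78 to -1.15 over 11 settings (adjusted p 0.0106 to 0.112). It passed in 2 of them, DESeq2 (-1.57) and predicted miRNAs left out before scaling (-1.78), where the median of the 242 miRNAs tested was -0.14, against -0.05 for the same miRNAs with predicted ones kept in the total. Without 1 library it ranged from -2.28 to -1.37 (limma, adjusted p 0.00924 to 0.215) and passed only without S05. The count of all calls, 32 (18 higher, 14 lower in black), was 27 to 52 over 11 settings, with 52 from DESeq2 (33 higher, 19 lower). With predicted miRNAs left out it was 16 higher and 19 lower, and with edgeR 13 higher and 17 lower. Without 1 library it was 7 to 41. The cause of these changes was not tested. The 3 ratios kept their direction in every setting run, and with 3 libraries against 2 an exact permutation p cannot fall below 0.2 in these fits. Depth limits ssc-miR-144 most, with 5 reads in S06.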
